A study of Drosophila melanogaster with 34 samples.

Results

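The cuticle protein genes described here are those of the CPR family and of the Tweedle family of Drosophila melanogaster. They were taken as the probe sets whose single annotated gene symbol starts with Cpr and a digit, or with Twdl. This gave 91 of the 18769 probe sets on the array, for 90 genes, 66 of them Cpr and 24 Twdl. A probe set was kept if its expression value was at least 4 on at least 5 of the 34 arrays. That left 51 probe sets of 51 genes, 40 Cpr and 11 Twdl, among 9729 probe sets tested in all.

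Insect cuticle is an extracellular layer of chitin fibres and proteins that epidermal cells secrete over the body, the trachea and the ends of the gut, and that is replaced at each moult. CPR proteins carry the Rebers and Riddiford consensus, a stretch that binds chitin, and the family is large because different proteins are used in different body regions and stages. Tweedle proteins form a separate family without that consensus, and dominant alleles of Tweedle genes, first known from Tubby, give a short and thick body. The numbers and letters in a Cpr name give the cytological position of the gene, so that Cpr76Ba and Cpr76Bb are neighbours.

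RNA came from pools of 50 to 200 newly hatched larvae of 6 populations, all from 1 outbred base population and bred for more than 300 generations under 1 of 3 regimes. Populations E1 and E2 were kept on medium with 12% ethanol, populations M1 and M2 (the variable regime) on a mixture of vials, some with 12% ethanol and some without, and populations R1 and R2 (the control regime) on medium without ethanol. All flies were then reared on standard medium before egg laying, and eggs lay for 15 hours under either 18% ethanol, diluted by the agar to about 12%, or water. Population and exposure groups were extracted once on each of days 1, 2 and 5, which are the 3 extraction blocks. The ethanol-exposed M2 sample of day 1 and the water-exposed M1 sample of day 2 are not among the arrays analysed here. By the protocol 35 samples were hybridised, and 34 were analysed here: 6 ethanol-exposed and 6 water-exposed arrays of the ethanol regime, 5 and 5 of the variable regime, and 6 and 6 of the control regime. A regime has 2 populations, which limits every comparison of regimes. The labels do not say whether the RNA samples of a population came from different egg collections, and p-values for exposure therefore cover the spread between samples, part of which may be technical.

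Values are log2 expression per probe set and were compared only within a probe set. The medians of the arrays lay between 3.89 and 4.02. Of the 8 day 5 arrays labelled as ethanol or variable regime, 7 resembled most the same-numbered population of the other of these 2 regimes and 1 its own, whereas all 4 day 5 control arrays resembled their own population. These 8 labels are therefore doubtful, and results that rest on them are given with and without these arrays. In whole larvae, fewer cells of a type and less RNA per cell cannot be told apart.

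Of the 40 probe sets that were not kept, 35 never reached 4 on any array. Cpr47Ed and Cpr66D reached it on 1 array each, TwdlE on 2, and Cpr65Ea and TwdlD on 4. The kept genes that reached 4 on the fewest arrays were Cpr12A on 15 arrays, Cpr67Fb on 16, TwdlM on 17, Cpr5C on 18 and Cpr78Ca on 21. In contrast, 43 of the 51 kept genes reached 4 on all 34 arrays. The kept genes lay on arm 3L (17 genes), 3R (14), 2R (13), X (5) and 2L (2) by the RefSeq gene table. The gene behind the Tubby phenotype carries the symbol Tb in that table and so falls outside the symbol rule. Probe sets shared by Cpr67Fa1 and Cpr67Fa2, by Cpr65Ax1 and Cpr65Ax2, and by Cpr57A and Obp57d name 2 genes and were not members.

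The first comparison asked which cuticle protein genes differed between ethanol-exposed and water-exposed larvae. Over all populations 8 of the 51 genes were higher and 5 were lower after ethanol, with limma adjusted p under 0.05. These 13 are 25.5% of the members, and 31.2% of all probe sets tested passed the same threshold. Higher calls made up 15.2% of all probe sets and lower calls 16.0%. The median log2 difference of the members was 0.0044, against 2.5e-05 over all probe sets, and the median size of the difference was 0.14 against 0.11. In every kept gene the values of the 17 ethanol-exposed arrays overlapped those of the 17 water-exposed arrays. Overlap was not counted over all probe sets, so this does not set the members apart.

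Cpr60D, a CPR gene of arm 2R, rose by the most. Its values ran from 10.77 through a median of 11.15 to 11.60 on the ethanol-exposed arrays and from 9.94 through 10.36 to 11.02 on the water-exposed arrays. The ethanol-exposed array was the higher in 16 of 16 pairs that share a population and day. The difference was 0.69 ± 0.07 (limma SE), which is 1.61-fold, with adjusted p = 3.78e-08. It was called in each regime on its own, at 0.58 in the ethanol regime, 0.57 in the variable regime and 0.91 in the control regime. Without the 8 doubtful arrays it was not called in the variable regime.

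Cpr67B, a CPR gene of arm 3L, rose by 0.45 ± 0.08 (limma adjusted p = 9.07e-05), and 15 of 16 pairs were higher after ethanol. Ethanol-exposed arrays ran from 9.87 through 10.96 to 11.50 and water-exposed arrays from 9.66 through 10.46 to 10.83. The lowest ethanol-exposed value came from the M1 array of day 5, which has a doubtful label. Without the 8 doubtful arrays the rise was 0.47, still called.

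Cpr67Fb and Cpr49Ad fell. Cpr67Fb ran from 3.10 through 3.65 to 5.23 on ethanol-exposed arrays and from 3.83 through 4.05 to 5.31 on water-exposed arrays. It was lower after ethanol in 15 of 16 pairs, by 0.69 ± 0.13 on the log2 scale (limma adjusted p = 0.000204). Both medians lie close to the filter level of 4, and the gene passed that level on 16 arrays.

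Cpr49Ad lay well above that level. It ran from 9.57 through 10.53 to 11.23 on ethanol-exposed arrays and from 10.23 through 10.88 to 11.31 on water-exposed arrays. It fell by 0.37 ± 0.06 (limma adjusted p = 2.17e-05), with 15 of 16 pairs lower. Beside Cpr60D it was the other gene called in every regime, with differences of -0.33 in the ethanol regime, -0.40 in the variable regime and -0.37 in the control regime. Without the 8 doubtful arrays it was not called in the ethanol or the variable regime. Cpr49Ag, a nearby gene, rose by 0.14 ± 0.04 (limma adjusted p = 0.0213), and Cpr49Ac, Cpr49Ae and Cpr49Af were not called.

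The other called Cpr genes changed less than Cpr67B did. Cpr76Ba rose by 0.26 ± 0.08 (limma adjusted p = 0.0159) and its neighbour Cpr76Bb by 0.20 ± 0.08 (adjusted p = 0.0469). Cpr78Cb rose by 0.21 ± 0.06 (limma adjusted p = 0.00465) in 14 of 16 pairs, whereas Cpr78Cc fell by 0.14 ± 0.04 (adjusted p = 0.0034) in 13 of 16. Cpr78Ca, the gene next to Cpr78Cb, was not called. Cpr50Cb fell by 0.43 ± 0.13 (limma adjusted p = 0.0128), and Cpr97Ea by 0.32 ± 0.08 (adjusted p = 0.00381). Cpr50Cb had 1 array far below the rest, the ethanol-exposed R2 array of day 1 at 5.81. Cpr65Av rose by 0.16 ± 0.06 (limma adjusted p = 0.0259) in 15 of 16 pairs.

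Without the 8 doubtful arrays 9 genes were called, 6 higher and 3 lower. The probe sets called in all then numbered 2474, against 3037 with these arrays. Cpr76Bb, Cpr65Av, Cpr49Ag, Cpr50Cb and Cpr78Cc then missed the threshold, at adjusted p of 0.228, 0.199, 0.176, 0.0569 and 0.0504. Without day 2, 7 genes were called, and 1797 probe sets in all.

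**Figure D1:**
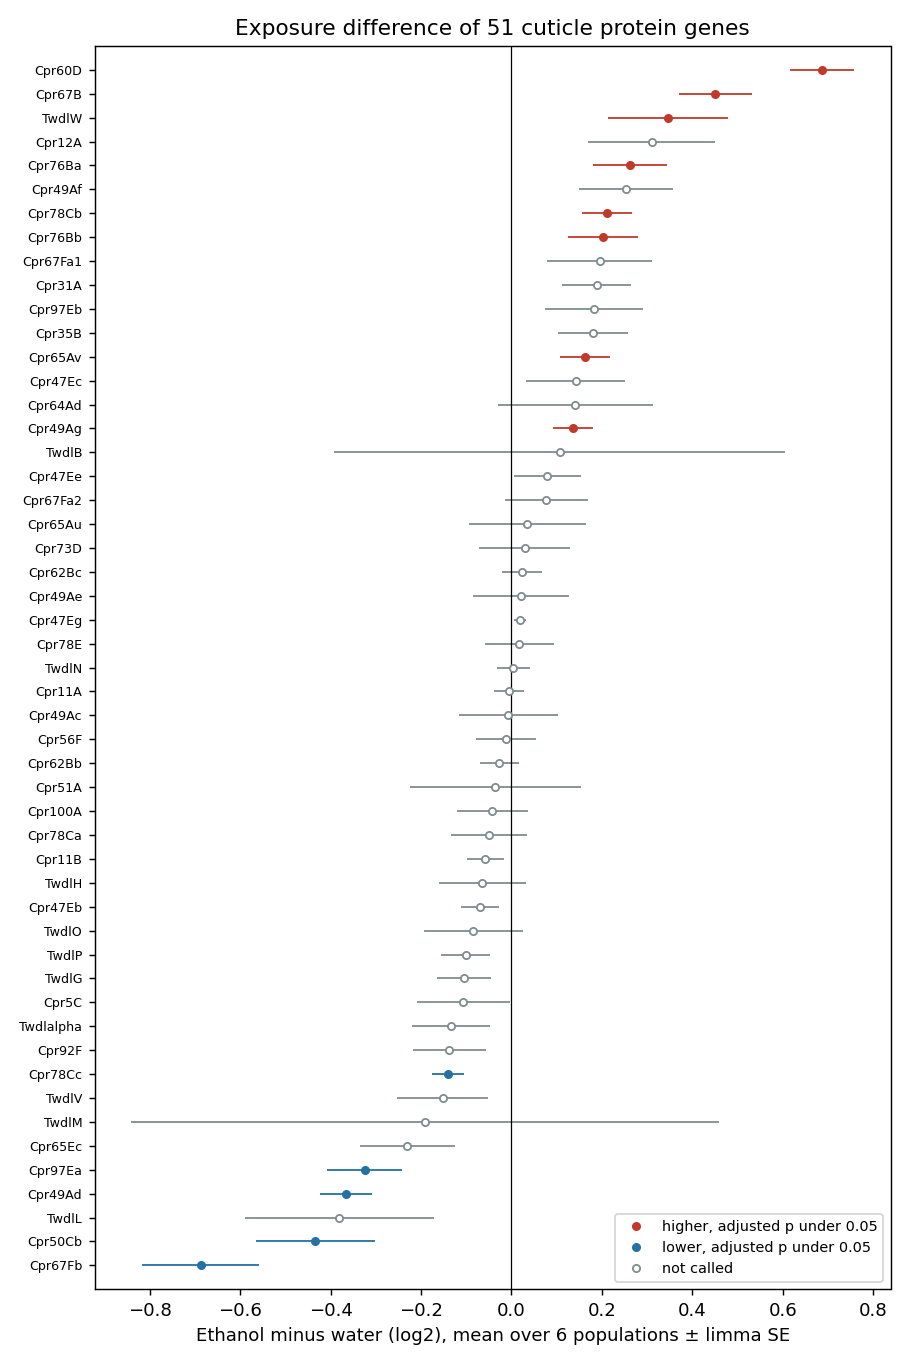
Log2 difference between ethanol-exposed and water-exposed arrays for the 51 kept genes, averaged over 6 populations, with bars of 1 limma standard error. Filled red points (8 genes) were called higher, filled blue points (5 genes) lower, and open grey points were not called; the widest bars belong to TwdlM and TwdlB.

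**Figure D2:**
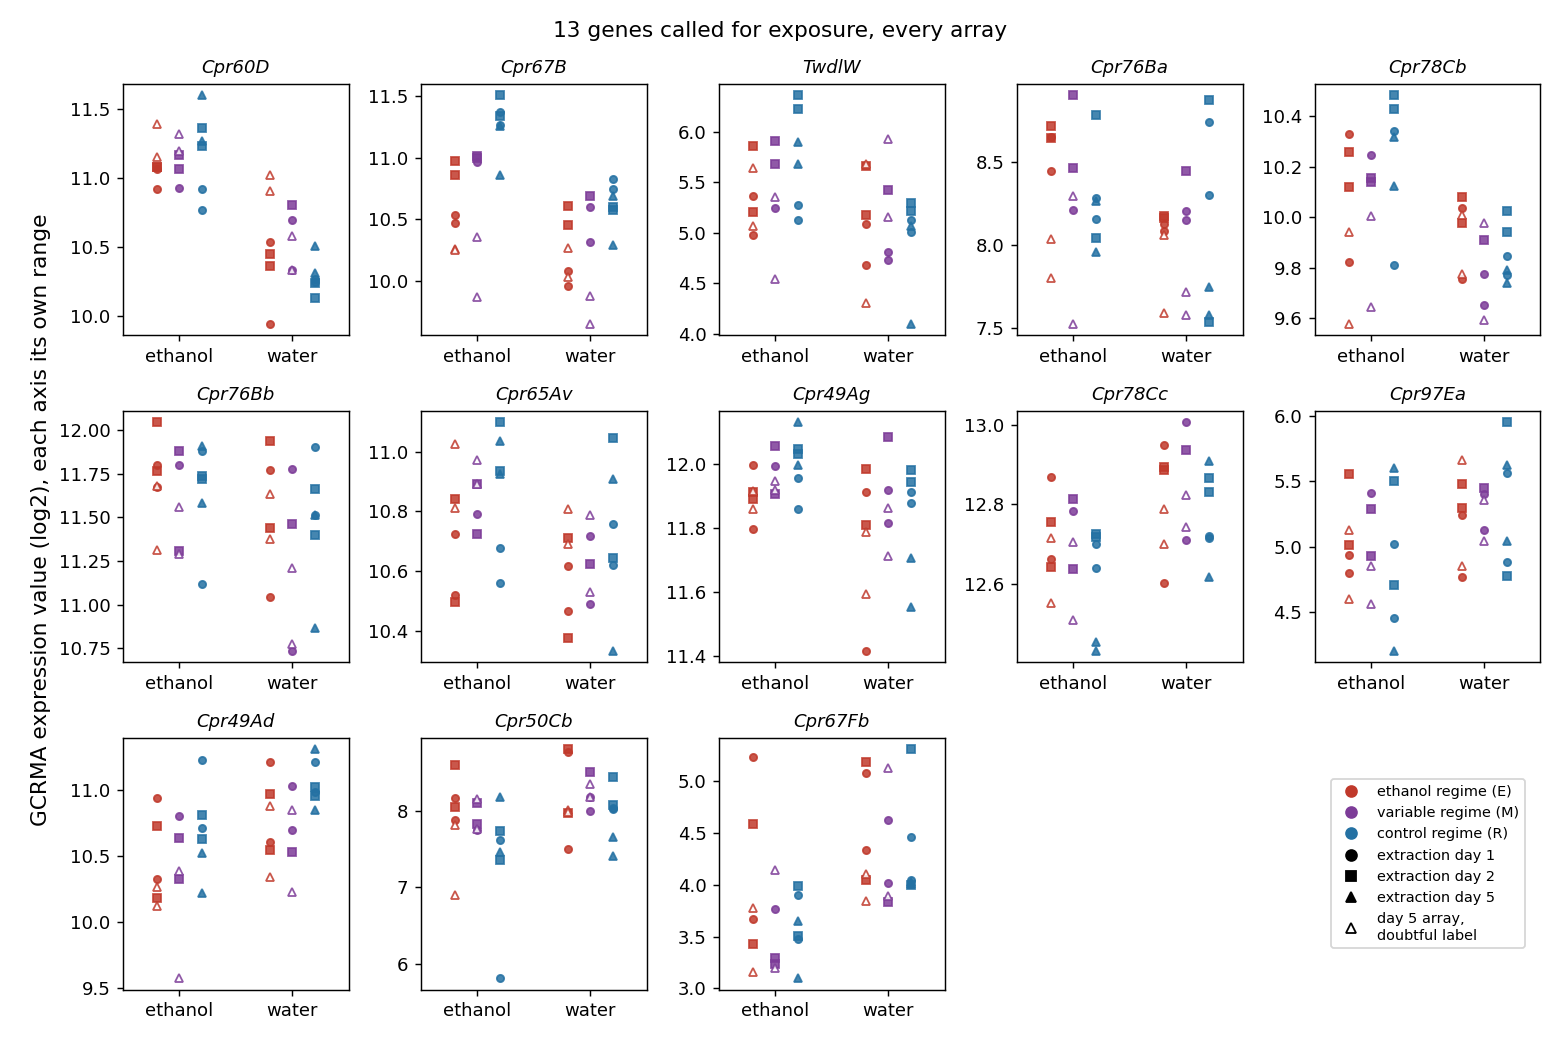
Expression value (log2) of the 13 called genes on each of the 34 arrays, with ethanol-exposed arrays on the left of each panel, coloured by regime and shaped by extraction day. Open triangles are the 8 day 5 arrays with doubtful labels; Cpr60D has ethanol-exposed values from 10.77 to 11.60 and water-exposed values from 9.94 to 11.02.

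Among the 11 Tweedle genes only TwdlW was called for exposure, and narrowly. It rose by 0.35 ± 0.13 (limma adjusted p = 0.0497), with 14 of 16 pairs higher, and missed the threshold under 15 of 21 alternative settings. The other 10 had differences between -0.38 (TwdlL) and 0.11 (TwdlB). For TwdlM, at -0.19 ± 0.65, and TwdlB, at 0.11 ± 0.50, the standard errors were larger than the differences, and no direction can be read. TwdlN had a small error, at 0.0044 ± 0.04.

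Exposure was also compared within each regime. In the ethanol regime 2 of the 51 genes were called (3.92%, against 8.43% of all probe sets, 4.55% higher and 3.88% lower), in the variable regime 3 (5.88%, against 6.84%, 3.49% higher and 3.34% lower), and in the control regime 8 (15.7%, against 18.1%, 7.96% higher and 10.1% lower). Cpr67Fb was called in the variable regime at -0.91 ± 0.24 (limma adjusted p = 0.0225) and in the control regime at -0.70 ± 0.22 (adjusted p = 0.0236). Cpr67B, Cpr78Cb and TwdlW passed in the control regime, at 0.64 ± 0.13, 0.40 ± 0.09 and 0.79 ± 0.22. Without the 8 doubtful arrays the ethanol regime had 1 called gene (Cpr60D), the variable regime 0 and the control regime 9. The probe sets called in all were then 515, 320 and 1885.

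A call in one regime and not in another does not show that regimes differ, so the response itself was compared over the 6 populations. No member was called for a difference in response between any 2 regimes, and neither was any other probe set (0% in each comparison). At unadjusted limma p under 0.05 there were 4 members and 394 probe sets for the ethanol minus the control regime, 8 and 529 for the variable minus the control regime, and 2 and 211 for the ethanol minus the variable regime. Cpr60D had the smallest or second smallest p in both comparisons with the control regime. Its response was 0.69 in E1, 0.47 in E2, 0.55 in M1, 0.59 in M2, 0.90 in R1 and 0.92 in R2. The response differed by -0.33 ± 0.10 between the ethanol and control regimes and by -0.34 ± 0.10 between the variable and control regimes (limma adjusted p = 0.836 for the second). For the ethanol minus the control regime the smallest limma adjusted p of any member was 0.9997.

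Cpr67B also responded most in the control regime. Its response was 0.28 in E1, 0.36 in E2, 0.36 in M1, 0.42 in M2, 0.63 in R1 and 0.65 in R2, so that both control populations exceeded the rest. The ethanol minus control difference in response was -0.32 ± 0.10 (limma, not called). Cpr78Cb responded by 0.09 in E1 and 0.05 in E2, by 0.18 in M1 and 0.15 in M2, and by 0.39 in R1 and 0.41 in R2, a difference of -0.33 ± 0.11 between the ethanol and control regimes that was not called either. TwdlW and TwdlG had differences of -0.80 ± 0.26 and -0.36 ± 0.11 between the variable and control regimes, also not called. Between the ethanol and variable regimes the smallest p-values were those of Cpr73D (0.40 ± 0.17), Cpr64Ad (0.50 ± 0.22) and Cpr51A (0.78 ± 0.36).

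The regimes were then compared for the level of each gene, averaged over both exposures, with each population as 1 replicate. Cpr65Ec and Cpr67B were named in the choice of this set because earlier results of these data showed their pattern, so their values are a description. Cpr65Ec, a CPR gene of arm 3L, had population levels of 8.33 in E1, 8.36 in E2, 8.22 in M1, 8.20 in M2, 7.63 in R1 and 7.71 in R2. The 4 populations with a history of ethanol lay above both control populations, and the 2 populations of each regime differed by less than 0.09. The ethanol minus control difference was 0.67 ± 0.07 and the variable minus control difference 0.54 ± 0.07.

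Single arrays of Cpr65Ec did overlap between regimes. In the ethanol regime ethanol-exposed arrays ran from 7.52 through 8.32 to 8.64 and water-exposed arrays from 8.15 through 8.41 to 8.76. In the variable regime they ran from 7.94 through 8.03 to 8.28 and from 8.18 through 8.20 to 8.55. In the control regime they ran from 7.22 through 7.45 to 8.13 and from 7.17 through 7.85 to 8.32. The lowest ethanol regime value, 7.52, came from a day 5 array of E2 with a doubtful label, and without the 8 doubtful arrays the ethanol minus control difference was 0.83 and the variable minus control difference 0.56. Exposure gave Cpr65Ec a difference of -0.23 ± 0.11 that was not called (limma adjusted p = 0.0998).

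Cpr67B showed the opposite order. Its population levels were 10.47 in E1, 10.44 in E2, 10.49 in M1, 10.56 in M2, 11.08 in R1 and 10.92 in R2. The ethanol minus control difference was -0.55 ± 0.07 and the variable minus control difference -0.48 ± 0.07; without the 8 doubtful arrays these were -0.53 and -0.25. The 4 variable regime arrays of day 5, all with doubtful labels, lay between 9.66 and 10.36, whereas the other 6 lay between 10.31 and 11.01. Ethanol-exposed control arrays, from 10.86 through 11.30 to 11.50, held the highest values of the gene.

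**Figure D3:**
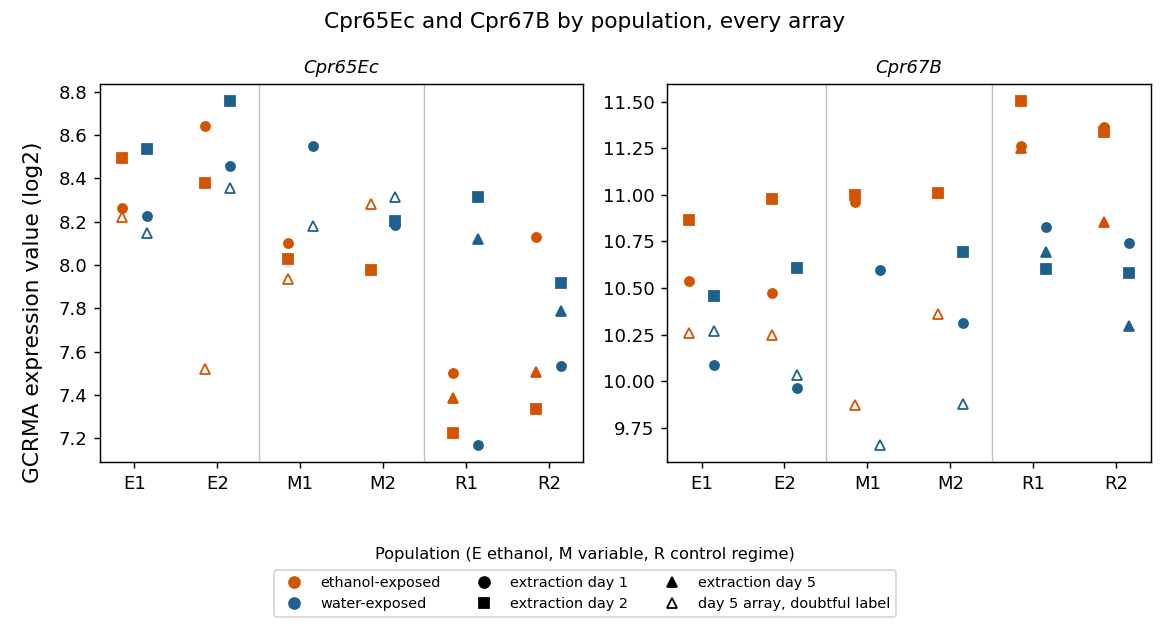
Expression value (log2) of Cpr65Ec (left) and Cpr67B (right) on every array, by population, with ethanol-exposed arrays left of water-exposed arrays within each population and extraction days as symbols. Cpr65Ec lies lower in R1 and R2 (population levels 7.63 and 7.71) than in the other populations, and Cpr67B higher (11.08 and 10.92); open triangles are day 5 arrays with doubtful labels.

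With populations as replicates limma called 0 of 51 members and 0 of 9729 probe sets (0%) in each comparison of regimes. At unadjusted p under 0.05 there were 4 members and 925 probe sets for the ethanol minus the control regime, 5 and 720 for the variable minus the control regime, and 1 and 128 for the ethanol minus the variable regime. Cpr65Ec and Cpr67B are among the members counted in both comparisons with the control regime. They were chosen for that pattern, so these counts of members support nothing.

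Other members came next at smaller size. Cpr47Eb was 0.17 ± 0.05 higher in the ethanol than in the control regime, TwdlP -0.21 ± 0.07 in the variable minus the control regime, and TwdlN 0.11 ± 0.03 and Cpr49Ag -0.10 ± 0.04 in the ethanol minus the variable regime. None was called. Cpr64Ad had a difference of -0.65 ± 0.25 between the ethanol and control regimes, but E1 and E2 themselves stood apart, at 6.11 and 6.74.

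The 3 extraction days were compared next. Each day is 1 extraction block, so handling and processing of a block cannot be told apart from the day. Between day 2 and day 1, 8 members were called and all were higher on day 2 (15.7%, against 11.2% of all probe sets, 5.78% higher and 5.39% lower). The order of size was TwdlL at 0.81 ± 0.26, TwdlW at 0.61 ± 0.17, Cpr73D at 0.48 ± 0.13, TwdlP at 0.40 ± 0.07, Cpr78E at 0.30 ± 0.09 and Cpr62Bc at 0.23 ± 0.05, with limma adjusted p between 0.00197 for TwdlP and 0.0452 for TwdlL. Cpr62Bb and TwdlN were the other 2 called genes.

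TwdlP, which encodes a Tweedle protein and lies in the cluster on arm 3R, had the smallest adjusted p of the day 2 minus day 1 calls. Its values ran from 10.46 through 10.88 to 11.18 on day 1 (n = 11), from 10.95 through 11.23 to 11.62 on day 2 (n = 11) and from 10.54 through 10.82 to 11.11 on day 5 (n = 12). TwdlN, in the same cluster, ran from 12.39 through 12.59 to 12.79 on day 1, from 12.60 through 12.73 to 12.92 on day 2 and from 12.22 through 12.52 to 12.64 on day 5. In both genes the day 2 median stood above the medians of the other days, and the ranges of the days overlapped.

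Between day 5 and day 2, 19 members were called and all were lower on day 5 (37.3%, against 32.5% of all probe sets, 18.0% lower). The largest differences were those of Cpr64Ad (-0.66 ± 0.21), Cpr73D (-0.61 ± 0.12), Cpr65Au (-0.58 ± 0.16), Cpr76Ba (-0.56 ± 0.10), Cpr67B (-0.54 ± 0.10) and TwdlW (-0.46 ± 0.16), with limma adjusted p of at most 0.0328. Of the 19 called genes, 15 were Cpr and 4 Twdl. Without the 8 doubtful arrays 2 genes were called, of 471 probe sets against 3166 with them, and Cpr64Ad was one of the 2 at -0.99.

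Between day 5 and day 1 the called members divided, 8 higher and 9 lower on day 5 (33.3%, against 43.2% of all probe sets, 20.6% higher and 22.6% lower). The higher ones were led by TwdlM (2.54 ± 0.79, limma adjusted p = 0.011), TwdlB (1.51 ± 0.60, adjusted p = 0.0451), Cpr51A (0.72 ± 0.23), Cpr60D (0.33 ± 0.09), TwdlV (0.30 ± 0.12) and Cpr78E (0.26 ± 0.09). The lower ones were led by Cpr65Au (-0.58 ± 0.16), Cpr76Ba (-0.50 ± 0.10), Cpr49Ad (-0.37 ± 0.07), Twdlalpha (-0.36 ± 0.10), Cpr67B (-0.35 ± 0.10) and Cpr100A (-0.30 ± 0.09).

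Day 5 without the doubtful arrays keeps 4 arrays, all of the control regime. Then 3 members and 2069 probe sets were called between day 5 and day 1, against 17 and 4204 with them. The differences of TwdlM, TwdlB, Cpr51A and TwdlV were 0.52, 0.12, 0.0025 and -0.014, and that of Twdlalpha was -0.10. Cpr78E, Cpr65Au, Cpr76Ba and Cpr100A kept values of 0.40, -0.51, -0.42 and -0.26 but missed the limma threshold, at adjusted p from 0.0525 to 0.204. Cpr60D at 0.37 and Cpr49Ad at -0.30 were still called.

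TwdlM and TwdlB had the widest spread of all members. After population, exposure and day were fitted, their residual SD was 2.09 and 1.61, against a median of 0.25 over the members and 0.19 over all probe sets tested. TwdlL (0.665), Cpr51A (0.602) and Cpr64Ad (0.54) followed. TwdlM ran from 2.68 to 9.27, with medians of 3.29 on day 1, 3.56 on day 2 and 6.08 on day 5.

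TwdlM reached the filter level of 4 on 17 arrays, and high values stood on arrays of several populations and days. The highest was 9.27 on the water-exposed R1 array of day 2, where TwdlB was 10.93 and TwdlL 10.09. The ethanol-exposed M1 array of day 2 had 8.50 for TwdlM, 9.77 for TwdlB and 9.66 for TwdlL. On day 5 TwdlM was 8.69 on the ethanol-exposed E1 array and 8.51 and 8.54 on the water-exposed M1 and M2 arrays. Both exposures are thus among the high arrays.

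Some pairs of this cluster varied together across arrays and others did not. Residuals of TwdlB and TwdlM correlated at r = 0.952 and rho = 0.929 over 34 arrays (permutation p = 1e-05, the smallest 100000 resamples can give; adjusted p = 0.00085 and 0.00127 over 1275 member pairs). Without the 2 farthest arrays r was 0.934, and without the 8 doubtful arrays 0.959. TwdlB and TwdlL gave r = 0.774 and rho = 0.783 (adjusted permutation p = 0.00085 and 0.00127; r = 0.741 without the 2 farthest arrays). TwdlN and TwdlP gave r = 0.725 and rho = 0.661 (adjusted permutation p = 0.00085 and 0.00304; r = 0.674 without the 2 farthest). TwdlM and TwdlO opposed each other, at r = -0.637 and rho = -0.58 (adjusted permutation p = 0.00232 and 0.00927; r = -0.615 without the 2 farthest arrays and -0.549 without the 8 doubtful arrays). TwdlB and TwdlO gave r = -0.517 and TwdlM and TwdlN r = -0.404. Arrays share the fitted means, so the residuals hold fewer free values than arrays and these p-values are too small.

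By the RefSeq gene table the order on arm 3R is TwdlM, TwdlP, TwdlB, TwdlL, TwdlO, TwdlK, TwdlJ, TwdlN, TwdlH. TwdlK and TwdlJ were not kept. TwdlP thus lies between TwdlM and TwdlB, and its r was -0.153 with TwdlM and -0.0136 with TwdlB. Over all pairs of Tweedle genes the median r was 0.09, against 0.076 over pairs of Cpr genes, 0.073 over all member pairs and 0.009 over all pairs of probe sets tested. The share with r above 0.5 was 20.0% of Tweedle pairs, 7.53% of member pairs and 5.47% of all pairs. Of the 1275 member pairs 129 with positive and 54 with negative r had an adjusted permutation p under 0.05. No such count was made over all pairs of probe sets, so it does not set the members apart, and these p-values are too small.

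Cpr pairs likewise went both ways. The neighbours Cpr76Ba and Cpr76Bb gave r = 0.844 and rho = 0.856 (adjusted permutation p = 0.00085 and 0.00127; r = 0.795 without the 2 farthest arrays and 0.906 without the 8 doubtful arrays). Cpr67Fa1 and Cpr67Fb gave r = -0.624 and rho = -0.566 (adjusted permutation p = 0.00283 and 0.0134; r = -0.525 without the 2 farthest arrays), and r = -0.0938 without the 8 doubtful arrays. Genes of different arms also correlated, with r = 0.827 for Cpr67Fa1 and Cpr97Eb and 0.815 for Cpr12A and Cpr67Fa1, or 0.462 and 0.738 without the 8 doubtful arrays. Cross-hybridisation between similar members was not tested.

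TwdlD and Cpr65Ea, both left out by the filter, were high on the same 4 day 5 arrays. TwdlD was 7.72 on the ethanol-exposed E1 array and 8.08, 7.55 and 6.98 on the water-exposed E2, M1 and M2 arrays, and below 4 on the other 30. Cpr65Ea was 6.10, 6.90, 6.56 and 5.46 there. Cpr51A, a kept gene, had its 4 highest values on these arrays too, at 9.65, 9.77, 9.94 and 9.05, against at most 8.54 elsewhere. All 4 arrays are among those with doubtful labels, and they hold both exposures.

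**Figure D4:**
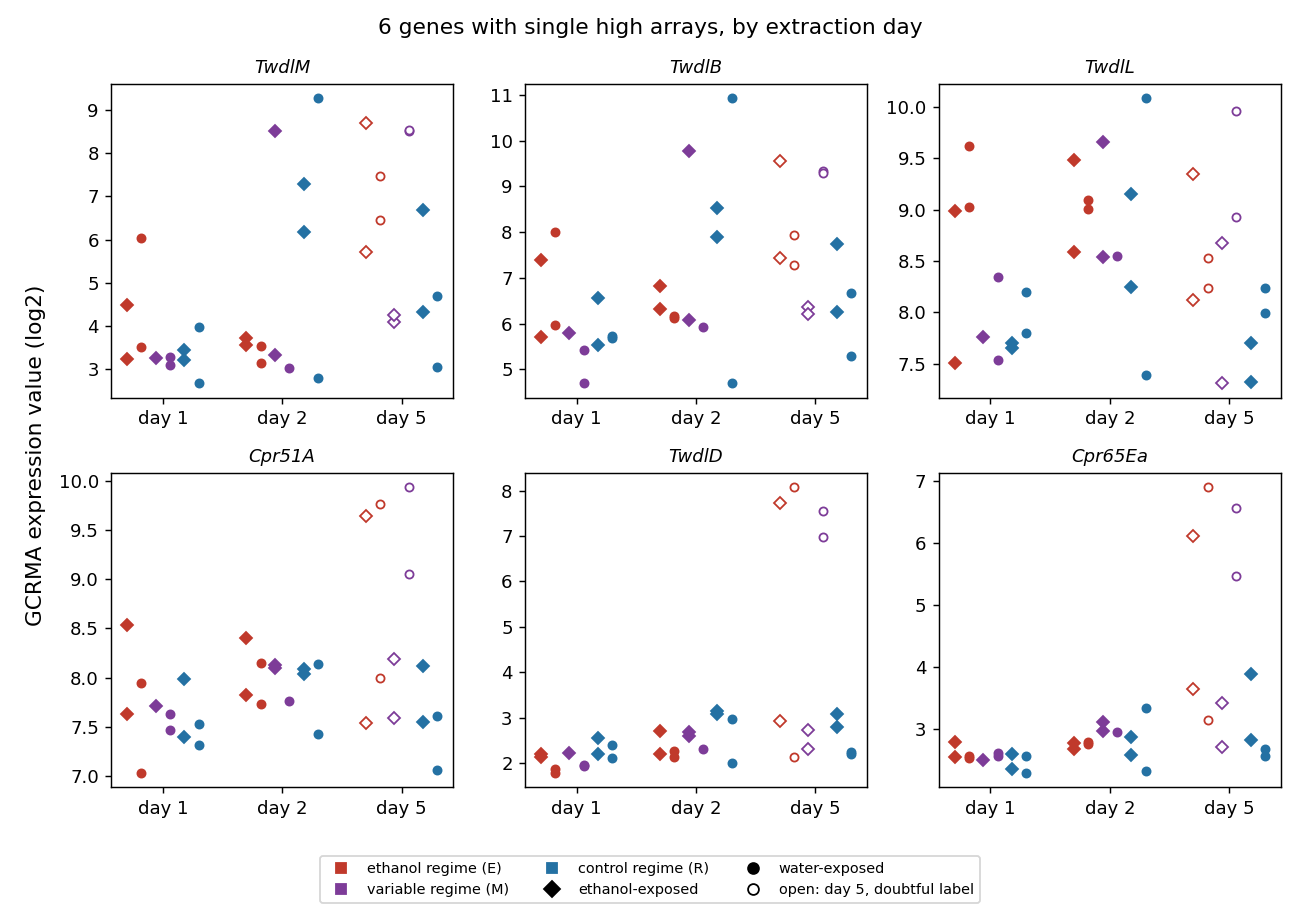
Expression value (log2) of TwdlM, TwdlB, TwdlL, Cpr51A, TwdlD and Cpr65Ea on every array by extraction day, coloured by regime, with diamonds for ethanol-exposed and circles for water-exposed arrays. TwdlM, TwdlB and TwdlL have high arrays on day 2 and day 5, and TwdlM reaches 4 on 17 arrays. TwdlD and Cpr65Ea exceed 4 on 4 day 5 arrays, all with doubtful labels (open symbols).

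Populations of the same regime differed as well. Between E1 and E2, 10 members were called, 7 higher in E1 and 3 lower (19.6%, against 11.0% of all probe sets, 6.04% higher and 4.96% lower). Between M1 and M2, 5 were called, 3 higher and 2 lower (9.8%, against 3.67%, 1.69% higher and 1.98% lower), and between R1 and R2, 5, with 4 higher and 1 lower (9.8%, against 8.09%, 4.20% higher and 3.89% lower). Without the 8 doubtful arrays these counts were 10, 1 and 6, with 1135, 221 and 928 probe sets called in all. Sequence differences under the probes and differences in RNA level cannot be told apart between populations.

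Cpr67Fa1 was the member called in all 3 pairs, higher in the population numbered 1 each time. Its arrays ran from 10.15 through 10.32 to 11.07 in E1 and from 8.96 through 9.53 to 9.78 in E2, without overlap, a difference of 1.02 ± 0.19 (limma adjusted p = 0.000845). M1 ran from 9.81 through 10.71 to 11.08 and M2 from 9.26 through 9.55 to 9.87, a difference of 0.92 ± 0.22 (limma adjusted p = 0.0125). R1 ran from 10.27 through 10.58 to 10.87 and R2 from 9.48 through 9.87 to 10.26, again without overlap, at 0.73 ± 0.19 (limma adjusted p = 0.0162). None of these 3 calls held under every alternative setting. Without the 8 doubtful arrays 1 member was called between M1 and M2, so the calls of Cpr67Fa1 and Cpr76Bb there do not both hold.

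Cpr67Fa1 and Cpr67Fa2 are near-identical copies, so the split of signal between them is uncertain. The probe set that names both had medians of 10.89 in E1 and 10.45 in E2, 10.90 in M1 and 10.41 in M2, and 11.00 in R1 and 10.66 in R2. These medians were higher in the population numbered 1 in each pair. The probe set of Cpr67Fa2 alone had medians of 7.50 in E1 and 7.94 in E2, 7.60 in M1 and 8.25 in M2, and 8.39 in R1 and 8.04 in R2. Its differences of -0.34 ± 0.15, -0.45 ± 0.17 and 0.29 ± 0.15 were not called, and the first 2 have the opposite sign to those of Cpr67Fa1.

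In the control regime Cpr49Ac was 0.99 ± 0.18 higher in R1 than in R2, with arrays from 6.28 through 6.59 to 7.12 in R1 and from 4.77 through 5.72 to 6.14 in R2. Cpr97Ea was 0.87 ± 0.14 higher in R1 and Cpr92F 0.67 ± 0.13, whereas Cpr76Ba fell by 0.48 ± 0.14 in R1 relative to R2. In the other regimes TwdlO was lower in the population numbered 1, by -0.61 ± 0.18 between E1 and E2 and -0.90 ± 0.21 between M1 and M2. Cpr65Au went the same way (-0.76 ± 0.21 and -0.89 ± 0.24), and Cpr49Ad the other (0.48 ± 0.10 and 0.52 ± 0.11). All these were called by limma; without the 8 doubtful arrays the 3 differences between M1 and M2 were not, nor was TwdlO between E1 and E2 (adjusted p = 0.05002).

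The other members called between E1 and E2 were Cpr67Fb (0.91 ± 0.22), Cpr49Ae (0.78 ± 0.18), Cpr78Ca (0.53 ± 0.14), Cpr62Bc (0.41 ± 0.07) and Cpr47Ee (0.37 ± 0.12), all higher in E1, and Cpr49Af (-0.77 ± 0.17). Cpr47Ee passed narrowly (limma adjusted p = 0.0499). Cpr67Fb, Cpr78Ca and Cpr47Ee had means of 4.03, 4.03 and 4.24 over all arrays, near the filter level of 4. Cpr76Bb was called between M1 and M2, at 0.51 ± 0.14.

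**Figure D5:**
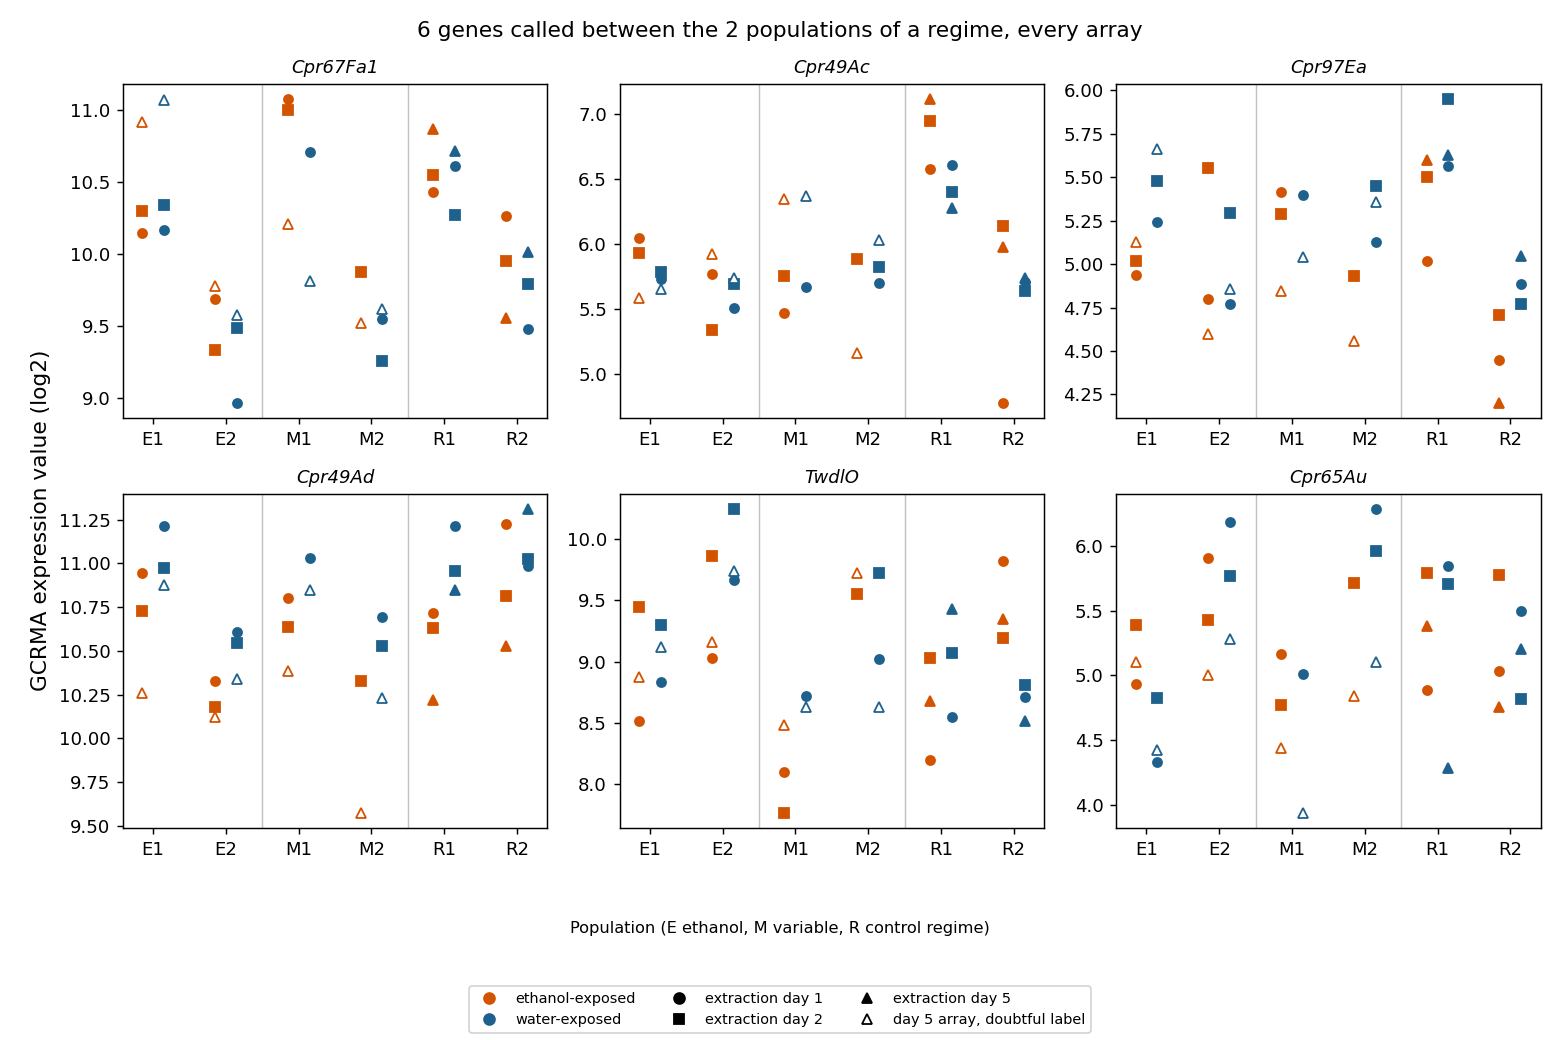
Expression value (log2) of 6 genes called between the 2 populations of a regime, on every array by population, with ethanol-exposed arrays left of water-exposed arrays and extraction days as symbols. Cpr67Fa1 lies higher in E1, M1 and R1 than in E2, M2 and R2, with differences of 1.02, 0.92 and 0.73.

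Other genes of cuticle formation, from lists chosen with earlier results known, gave the setting for the exposure result. Of 25 tested genes listed as chitin and cuticle enzymes 10 were called higher and 3 lower after ethanol, with a median difference of 0.10, where 15.2% of all probe sets were called higher and 16.0% lower. The list is wider than enzymes, with knk and the Idgf genes in it, and knk, Idgf1, Idgf3 and Idgf4 were among those called higher. The chitinases Cht4 and Cht9 and the hexosaminidase Hexo2 fell, by 2.47, 0.57 and 0.43, whereas the chitinase Cht5 (0.42) and the chitin deacetylases serp (0.40) and verm (0.39) rose. Of 20 other cuticle proteins 8 were higher and 3 lower, with obst-B (0.61), obst-G (0.49), Acp65Aa (0.39) and Peritrophin-A (0.33) rising and Lcp65Aa (-0.54) and Edg78E (-0.35) falling.

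Of 15 tanning genes 2 were higher and 4 lower: yellow-e2 (0.58) and yellow-f2 (0.17) rose, and yellow-f (-0.55), yellow-d (-0.52), amd (-0.41) and pr (-0.18) fell. Of 6 apical matrix proteins qsm rose (0.20), and mey (-0.265) and nompA (-0.21) fell. Of 16 ecdysone and moulting genes 0 rose and 4 fell, and over all probe sets 31.2% were called. The 4 were the ecdysteroid hydroxylase gene Cyp18a1 (-0.95), the transporter gene E23 (-0.60) and the ecdysone synthesis genes spok (-0.45) and shd (-0.44). Of 4 epidermal regulators 0 were called.

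Markers of some cell types moved with exposure too, and their part in the results was not tested. Over all probe sets 15.2% were called higher and 16.0% lower after ethanol. Of 7 tested epidermis and trachea markers 3 were higher after ethanol and 0 lower, with summed levels from 12.08 to 12.93 on ethanol-exposed and from 12.07 to 12.48 on water-exposed arrays (log2 of the sum). The 3 were serp, verm and knk, which the list of chitin and cuticle enzymes also holds, and grh, btl, Gasp and kkv were not called. Of 7 haemocyte markers 0 were higher and 5 lower, with sums from 14.09 to 14.22 and from 14.07 to 14.34. Of 7 midgut markers 1 was higher and 2 lower, and of 3 fat body markers 2 were higher and 0 lower. The neuron marker brp fell (-0.29) at a mean of 3.84, and elav, nSyb and Rdl were not called. The muscle markers Tm2, up and bt and the germ line marker bam were not called either. The mean of the tracheal marker btl lay below 4.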

How the data were processed

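Expression was measured on 34 arrays, 1 per RNA sample. The authors deposited log2 values. Per the submitters' processing notes these were made with affy and GCRMA, and no version of either is given in those notes. Of 18769 probe sets 13647 list 1 gene, 402 several and 4720 none in the platform annotation, and 13544 matched the RefSeq gene table. Probe sets with a value of at least 4 on at least 5 arrays (9729) were tested.

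limma 3.58.1 in R 4.3.3 fitted 12 means of population and exposure plus extraction day, with an intensity trend and Benjamini-Hochberg adjustment over all 9729, at 0.05. Regimes and differences in response were tested on 1 value per population. Extraction day is the replicate number of the labels and marks shared blocks: deviations correlated on average at 0.394, 0.184 and 0.423 within days 1, 2 and 5 and at -0.196 between days.

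The members, gene lists and markers were chosen with earlier results of these data known. Genes were named by a rule: Cpr65Ec and Cpr67B throughout, all called members for exposure, up to 10 called members (or the 3 smallest p) for regimes, responses and populations, the 6 largest in each direction for days, and up to 6 called genes per list. Correlations of residuals used permutation tests with 100000 resamples. Alternatives changed the filter, scaling, moderation, arrays, populations and days used. No genome build was used, and searches of protein and promoter sequence were not used here.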

Additional observations from a re-analysis of the deposited data

Results flagged for a closer look

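Of 52 groups of 4 to 10 arrays examined for a single array far from the rest, 4 had one, and chance gives about 1 in 20. In Cpr65Ec, the ethanol-exposed R2 array of day 1 stood at 8.129, above the other ethanol-exposed control arrays at 7.223 to 7.505. On the same array Cpr49Ac stood at 4.772, below the other R2 arrays at 5.635 to 6.138. Cpr49Ae stood at 6.747 on the ethanol-exposed E1 array of day 5, which has a doubtful label, below the other E1 arrays at 7.172 to 7.405. Cpr78Ca stood at 4.743 on the water-exposed E1 array of day 2, above the other E1 arrays at 4.081 to 4.264. Population groups mix both exposures and all days, so these 3 are descriptions.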

How the results depend on the processing

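Of 1675 values of named genes under alternative settings 1376 kept direction and side of the threshold, 259 lost a call, 7 gained one and 33 changed sign. Of the 70 called gene results 7 were called under every setting run, among them Cpr60D and Cpr67B for exposure over all populations, and 1 changed sign, TwdlV for day 5 minus day 1 at -0.01398 without the 8 doubtful arrays. The cause of the changes below was not tested. Of 247 counts 203 stayed within 1.5 times. Many of these are regime and response counts that were 0 and stayed 0, which says little with 2 populations a regime. Without a filter 4 members were called for day 2 minus day 1, of 811 probe sets called in all. With a mean of at least 6 there were 5 for exposure in the control regime, 6 for E1 minus E2 and 3 for R1 minus R2. The probe sets called in all were then 1495, 779 and 568. A changed filter also changes the number of probe sets tested. Centred arrays gave 1 for exposure in the ethanol regime (824 in all) and 4 for day 2 minus day 1 (1158 in all). No intensity trend gave 5 for day 2 minus day 1 (1033 in all).

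Without the 8 doubtful arrays the counts were 0 (variable regime exposure), 1 (ethanol regime exposure), 1 (M1 minus M2), 3 (day 5 minus day 1) and 2 (day 5 minus day 2). In that order 320, 515, 221, 2069 and 471 probe sets were called in all. Then Cpr67B was -0.01952 for E1 minus E2, 0.1367 for M1 minus M2 and 0.0914 for the response of the ethanol minus the variable regime, and Cpr65Ec was 0.1085 for day 5 minus day 1, 0.01118 for day 5 minus day 2 and -0.1061 for the response of the variable minus the control regime. With no replicate block the counts were 3 for exposure in the control regime, 1 in the ethanol regime and 2 for M1 minus M2. In all 1029, 404 and 170 probe sets were then called. Ethanol-exposed arrays alone gave 1, 8 and 12 and water-exposed arrays alone 0, 4 and 4 for days 2 minus 1, 5 minus 1 and 5 minus 2. The probe sets called in all were 28, 3102 and 2064 on ethanol-exposed arrays and 9, 2171 and 1133 on water-exposed arrays. There Cpr65Ec was -0.2769 for day 2 minus day 1 on ethanol-exposed arrays and 0.1309 for day 5 minus day 1 on water-exposed arrays. With arrays as replicates and population as a random block 2 members passed for the ethanol and 1 for the variable minus the control regime. In all 156 and 81 probe sets passed. The members are Cpr65Ec and Cpr67B, which were chosen for that pattern, so the counts of members support nothing. Exposure over all populations gave 2 within day 1, where Cpr65Ec was 0.1412, and 7 within day 5. The probe sets called in all were 627 within day 1 and 1299 within day 5.

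Leaving out a day or a population gave 7 to 13 members for exposure over all populations, of 1797 to 2866 probe sets called in all. Leaving out a day gave 1 to 8 members in the control, 0 to 1 in the variable and 0 to 3 in the ethanol regime. The probe sets called in all were then 725 to 1560, 183 to 418 and 244 to 555. For E1 minus E2, M1 minus M2 and R1 minus R2 it gave 2 to 13, 1 to 2 and 3 to 7 members. There the probe sets called in all were 179 to 1209, 91 to 258 and 293 to 659. Leaving out a population gave 2 to 9, 13 to 18 and 11 to 21 for days 2 minus 1, 5 minus 1 and 5 minus 2. The probe sets called in all were then 218 to 1255, 3552 to 4092 and 2127 to 2985. Over these settings Cpr67B ran from -0.01952 to 0.1077 (E1 minus E2), -0.3135 to 0.1367 (M1 minus M2), -0.2784 to 0.1349 (ethanol minus variable regime) and -0.2174 to 0.0914 (their response). Cpr65Ec ran from -0.1791 to 0.09425 (E1 minus E2), -0.1012 to 0.2694 (M1 minus M2), -0.1927 to 0.1265 (R1 minus R2), -0.01279 to 0.2738 (ethanol minus variable regime), -0.02693 to 0.1233 (day 2 minus day 1) and -0.2089 to 0.01299 (day 5 minus day 1). Its response differences ran from -0.1135 to 0.3766 (ethanol minus control), -0.2134 to 0.4724 (variable minus control) and -0.1168 to 0.3499 (ethanol minus variable). With 2 populations a regime, and values near the filter level of 4 in Cpr67Fb, TwdlM, Cpr12A, Cpr78Ca and Cpr47Ee, precision is limited.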

Other observations

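Probe sets whose residuals were most like those of TwdlM, chosen after their values were seen, were CG14568 (r = 0.908 over 34 arrays), CG42819 (0.897), CG33160 (0.865), CG13679 (0.862), the cuticle protein gene Ccp84Ae (0.842) and CG43386 (0.835). On the water-exposed R1 array of day 2, where TwdlM was highest, Ccp84Ae stood at 8.24 and CG42819 at 9.86. On the water-exposed R2 array of day 1, where TwdlM was lowest, Ccp84Ae stood at 2.61 and CG42819 at 3.13. The arrays share the fitted means and the day blocks.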
